A study of Mus musculus with 36 samples.

Results

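Gata2, Gata3, Gata4, Gata5, Gata6, Foxa1, Foxa2, Sox17 and Tal1 are transcription factor genes that specify endoderm, heart, blood and vessel lineages. They were chosen by name, with earlier results of these data known, as genes of other lineages taken to be silent in brain progenitors. All 9 symbols were found among 21938 protein-coding genes of the mouse annotation (GRCm38, the same assembly as mm10). They lie at chr6:88193891-88207032 (Gata2), chr2:9857078-9890034 (Gata3), chr14:63198922-63271692 (Gata4), chr2:180325133-180334699 (Gata5), chr18:11052064-11085635 (Gata6), chr12:57540628-57546916 (Foxa1), chr2:148042877-148046969 (Foxa2), chr1:4490931-4497354 (Sox17) and chr4:115056426-115071755 (Tal1). Islands of H2AK119ub1, H3K27me3 and H3K36me2 called from ChIP-seq were examined at these genes in 24 libraries. The files hold no RNA measurement, so whether the genes were silent was not tested here. The material was P0 mouse hippocampus, a tissue of mixed cell types, and neurospheres, suspended clusters of neural progenitor cells that were taken from P0 hippocampi and grown with FGF2 and EGF. The Ctrl group carried Kdm2bfl/+ or Kdm2bfl/fl, and the cKO group carried Kdm2bEmx1-delta-CxxC, in which Emx1-Cre removes the exon for the CxxC zinc finger of KDM2B in dorsal forebrain progenitors and their offspring. Cells of the hippocampus outside that lineage keep the floxed allele intact. The islands do not show the deleted exon, so genotypes were taken from the labels alone. Each mark, source and genotype had 2 libraries. The labels do not say that the 2 libraries came from separate animals, so tests measure only the spread between libraries.

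Polycomb repression holds developmental genes of foreign lineages silent. PRC1 places H2AK119ub1 and PRC2 places H3K27me3, often over broad domains that cover whole genes. KDM2B brings a variant PRC1 complex to unmethylated CpG-rich DNA through its CxxC domain, and its long isoform also removes H3K36me2, a mark that PRC2 tolerates poorly. The question behind the comparison was whether loss of the CxxC domain altered these marks at the genes.

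Islands, the broad enriched intervals that SICER calls, were read in 3 ways. Promoter coverage is the percentage of the 4 kb around an annotated start (2 kb on each side) that lies inside islands. Width is the length of the widest island over that window, and counts per kb is the read count of that island divided by its width. Counts inside islands are raw and are not the sequencing depth. They ranged from 987329 to 6799122 per library in hippocampus and from 5025115 to 22021439 in neurospheres, and the lowest hippocampal H2AK119ub1 totals belonged to Ctrl replicate 1 with 1015578 and cKO replicate 1 with 987329, against 4215938 and 6799122 in the replicates numbered 2. For this reason counts per kb are also given relative to the median of all islands over CpG-rich promoters of the same library. A change shared by those islands cancels in this ratio, so the ratio cannot show a general gain or loss of a mark. In neurospheres the median log2 ratio of cKO to Ctrl counts per kb over CpG-rich promoters was -0.48 for H3K27me3 and -0.54 for H2AK119ub1. As a check of the material, H3K27me3 covered 100% of the promoters of 39 Hox genes in all 8 libraries of the mark. Of 8 progenitor genes, Sox2, Fabp7 and Vim had no H3K27me3 island over the promoter in any of these libraries, while Pax6 was covered over 82.2% on average.

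The CxxC domain reads CpG dinucleotides, so the DNA just upstream of the starts is shown for the members with the most and the fewest of them, with CG in capitals. Each sequence is the 250 bases before the annotated start in GRCm38 (mm10), read 5′ to 3′ on the strand of the gene. Gata2 (chromosome 6, plus strand, chr6:88193641-88193890) and Gata5 (chromosome 2, minus strand, chr2:180334700-180334949) held 22 CG each. Gata4 (chromosome 14, minus strand, chr14:63271693-63271942) and Tal1 (chromosome 4, plus strand, chr4:115056176-115056425) held 6 each, as did Gata3 and Foxa2.
Gata2: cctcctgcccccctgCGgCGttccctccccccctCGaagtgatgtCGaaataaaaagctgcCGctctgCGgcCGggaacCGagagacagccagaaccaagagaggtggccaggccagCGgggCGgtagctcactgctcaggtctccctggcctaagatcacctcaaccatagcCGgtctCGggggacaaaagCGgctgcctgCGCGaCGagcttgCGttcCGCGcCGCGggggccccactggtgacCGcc
Gata5: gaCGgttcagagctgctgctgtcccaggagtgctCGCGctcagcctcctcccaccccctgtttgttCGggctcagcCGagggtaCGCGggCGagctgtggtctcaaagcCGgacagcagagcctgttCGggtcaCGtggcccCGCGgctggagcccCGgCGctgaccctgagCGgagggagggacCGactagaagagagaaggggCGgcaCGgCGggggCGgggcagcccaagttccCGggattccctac
Gata4: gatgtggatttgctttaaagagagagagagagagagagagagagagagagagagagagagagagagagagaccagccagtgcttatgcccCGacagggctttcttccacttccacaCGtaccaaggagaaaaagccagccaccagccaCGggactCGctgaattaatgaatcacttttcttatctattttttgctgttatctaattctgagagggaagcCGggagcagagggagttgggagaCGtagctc
Tal1: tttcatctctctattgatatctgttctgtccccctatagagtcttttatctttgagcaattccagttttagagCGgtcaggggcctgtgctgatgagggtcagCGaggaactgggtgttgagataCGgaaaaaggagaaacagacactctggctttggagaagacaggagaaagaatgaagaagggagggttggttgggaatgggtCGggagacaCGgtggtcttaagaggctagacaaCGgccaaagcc

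None of these 4 windows overlaps an annotated exon. The members ranged from 6 to 22 CG with a median of 7, the median of all promoters was 8, and 59% of all promoters held at least 6. A promoter was called CpG-rich when the 1 kb around its start had a GC content above 50% and an observed CpG count above 0.6 of that expected from its base composition. At the annotated starts this held for 4 of 9 members (Gata2, Gata5, Sox17 and Tal1), or 44.4%, the same share as among all genes. The annotated start is the outermost one, and it lay 26444 bp from the start of the principal transcript at Gata4, 11434 bp at Gata3 and 4443 bp at Gata2. At the principal starts 7 of 9 members were CpG-rich, all but Foxa2 and Sox17, against 45.5% of all genes. cKO minus Ctrl of mean H3K27me3 coverage was 0 percentage points at either start.

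H3K27me3 covered 100% of the promoter window of each of the 9 genes in each of its 8 libraries, and H3K36me2 covered 0% of each in each of its 8 libraries. No difference between genotypes or sources could therefore appear in the promoter coverage of these marks. Full H3K27me3 coverage in 8 of 8 libraries was uncommon, with 379 of 21938 promoters (1.73%) and 247 of 9733 CpG-rich promoters (2.54%). Absence of H3K36me2 from all 8 libraries was common, at 10791 promoters (49.2%), and it held for 293 of the 379 promoters (77.3%) that were fully covered by H3K27me3. H2AK119ub1 was the only mark whose promoter coverage varied among the members.

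**Figure D1:**
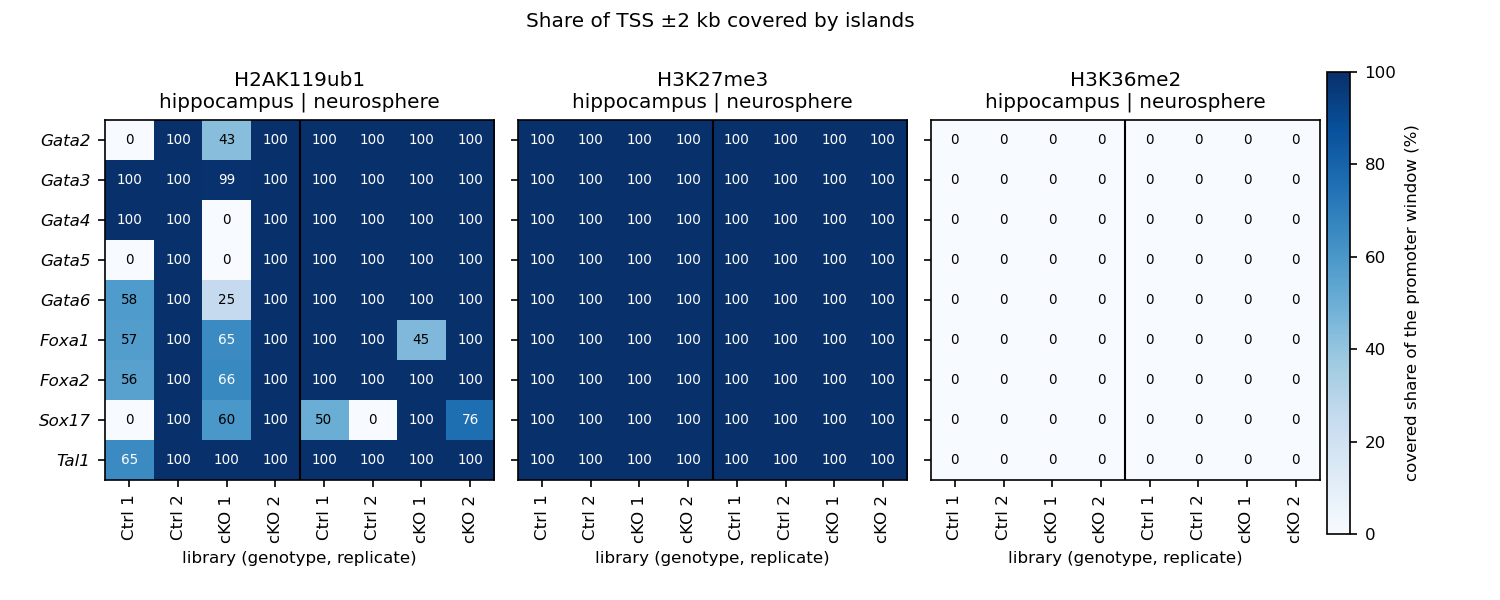
Percentage of the window 2 kb on each side of the start that is covered by islands, for each of the 9 genes (rows) in each library (columns), with a panel for each mark and the value printed in each cell. H3K27me3 stood at 100 and H3K36me2 at 0 throughout, and H2AK119ub1 was below 100 mainly in both hippocampal libraries with replicate number 1.

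H2AK119ub1 in hippocampus differed more between replicate numbers than between genotypes. The mean coverage over the 9 promoters was 48.5% in Ctrl replicate 1, 100% in Ctrl replicate 2, 50.9% in cKO replicate 1 and 100% in cKO replicate 2. Both replicates numbered 2 covered each promoter completely, and both numbered 1, which had the fewest counts, did not. The part of depth in this was not tested. cKO minus Ctrl was 1.19 percentage points at the annotated starts. It was -7.61 at the principal starts, and leaving out a library moved it from -24.6 (without Ctrl replicate 1) to 26.9 (without Ctrl replicate 2). The same mean over all promoters ran from 1.68% to 16.1%.

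Single members had the same order of libraries, with few exceptions. Gata3, which directs T cell and luminal cell fates, was at 100%, 100%, 99.2% and 100% in Ctrl 1, Ctrl 2, cKO 1 and cKO 2, and was the most evenly covered. Gata4, a regulator of heart and endoderm, was at 100%, 100%, 0% and 100%. Gata5, which acts in endocardium and gut, was at 0%, 100%, 0% and 100%. No member had both cKO libraries below or both above the Ctrl libraries, and across 6246 promoters with an island 1.7% were lower and 2.03% were higher in both. At Gata4 no island reached the promoter window in cKO replicate 1, while 33.3% of the gene body was covered there, against 33.4% in Ctrl replicate 1. Among the other 6 members, Ctrl replicate 1 ran from 0% (Gata2 and Sox17) to 65% (Tal1) and cKO replicate 1 from 25% (Gata6) to 100% (Tal1).

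In neurospheres H2AK119ub1 covered 7 of 9 promoters completely in all 4 libraries (Gata2, Gata3, Gata4, Gata5, Gata6, Foxa2 and Tal1). Foxa1, a pioneer factor of endoderm, was at 100%, 100%, 45% and 100% in Ctrl 1, Ctrl 2, cKO 1 and cKO 2, so its groups overlapped. Sox17, which specifies definitive endoderm and haemogenic endothelium, was at 50%, 0%, 100% and 76.2%. It was the only member whose groups did not overlap, with cKO above Ctrl by 63.1 percentage points (means 25% ± 35.4 and 88.1% ± 16.9, SD, n = 2 each; exact permutation test, two-sided p = 0.333, the smallest that 2 against 2 can give). Across 10571 promoters with an island 4.42% were higher in both cKO libraries. Ctrl replicate 2, where Sox17 was at 0%, had the fewest counts of these 4 libraries (5025115) and covered 9.12% of all promoter windows, against 11.8% to 28.4% in the others. The difference at Sox17 was 38.1 percentage points without that library, 63.1 with all libraries cut to an equal covered length and 72.5 at its principal start. The Sox17 gene body was also higher in both, at 64.7% and 0% in Ctrl against 83.3% and 77.1% in cKO, and 8.07% of all gene bodies with an island had this order.

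Over both sources the cKO minus Ctrl difference of Sox17 was 46.5 percentage points (exact permutation test stratified by source, two-sided p = 0.222, adjusted p = 1 over 11418 promoters), and no other member had a smaller p. Mean coverage over the 9 promoters was 18.8 percentage points higher in neurospheres than in hippocampus. The gap came from the 2 hippocampal libraries numbered 1 (48.5% and 50.9%), since both numbered 2 were at 100%, above each neurosphere library (88.9% to 97.4%). Over all promoters the mean was 9.12% to 28.4% in the neurosphere libraries and 1.68% to 16.1% in the hippocampal ones. No member passed the comparison of sources: the smallest stratified exact p was 0.5 (adjusted p = 0.944), at Gata2, Gata5, Gata6 and Foxa2. Sox17 was the only member with a lower mean in neurospheres, at 56.5% against 65%. The stratified tests cannot go below 0.0556.

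Beyond the promoters, the marks formed broad domains. Islands that overlapped or touched in the 4 libraries of a mark and source were merged into regions. The H3K27me3 regions at the members were 15.4 kb (Gata5) to 81.6 kb (Gata4) long in hippocampus, with a median of 38.2 kb against 14 kb for all 4387 regions called in 4 libraries. In neurospheres they were 25.4 kb (Sox17) to 333 kb (Gata4), with a median of 80.4 kb against 13.8 kb for all 11262. Sox17 was the only member with a shorter merged region in neurospheres than in hippocampus, 25.4 kb against 38.2 kb.

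Some of these domains ran over neighbouring genes. The neurosphere region at Gata4 (chr14:63186001-63519000) also held the starts of Blk, Fam167a, Neil2 and Tdh, and the region at Gata5 (chr2:180273801-180541600) held those of Ntsr1, Rbbp8nl and Slco4a1. The region at Gata2 (chr6:88106401-88276400, 170 kb) reached Dnajb8, that at Gata3 held 4930412O13Rik and 9230102O04Rik, that at Foxa1 reached Ttc6 and that at Tal1 reached Pdzk1ip1. Regions at Gata6, Foxa2 and Sox17 held no other protein-coding start. H2AK119ub1 regions in neurospheres were of the same order, 29.6 kb (Gata6) to 269.2 kb (Gata5). No region called in all 4 libraries covered the Sox17 promoter for that mark there.

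**Figure D2:**
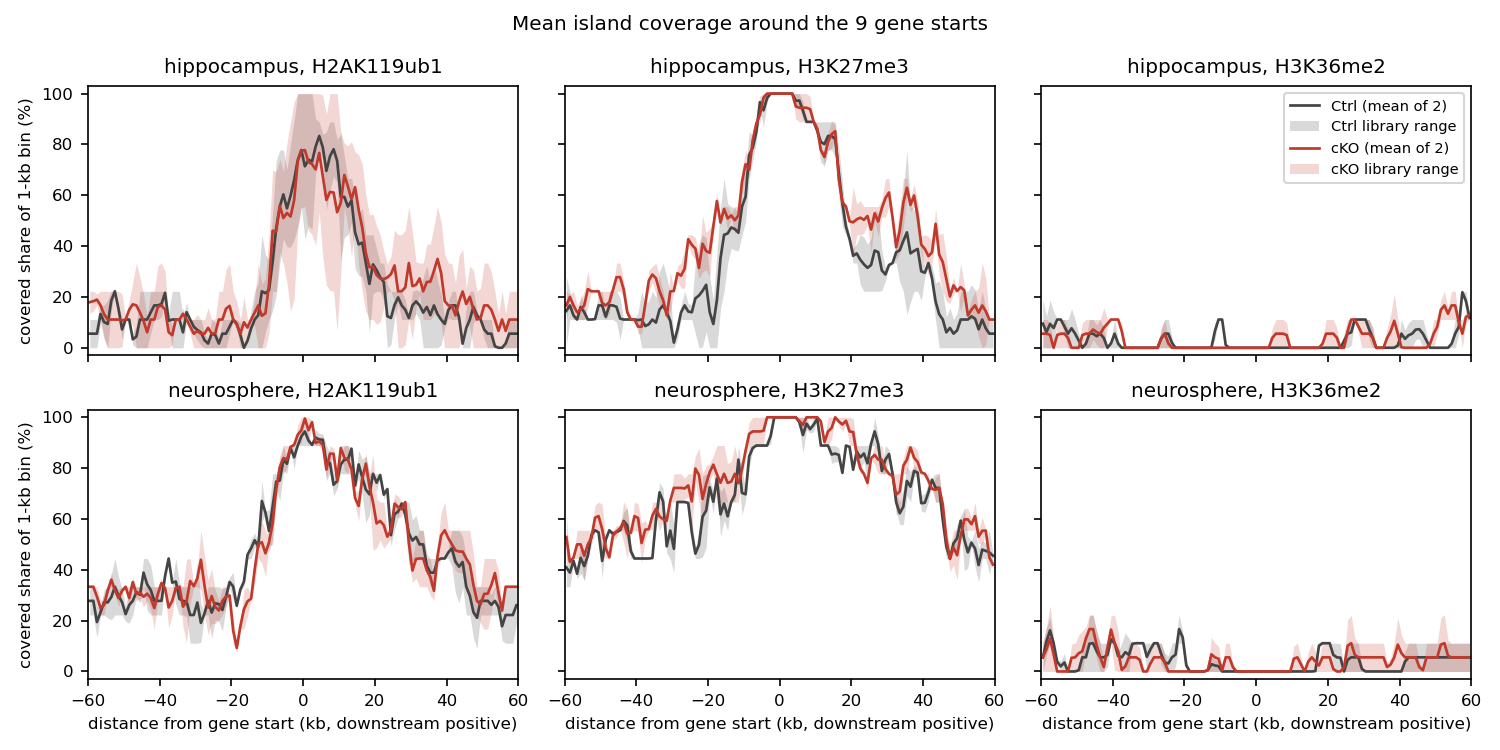
Mean percentage of each 1-kb bin covered by islands over the 9 genes, by distance from the annotated start in kb (downstream positive), for each mark and source. Lines are the mean of 2 libraries and bands span those libraries. H3K27me3 reached 100% at the start in both sources and spread further in neurospheres, where its islands also covered more of the genome. H3K36me2 was at 0% around the start.

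The spread is visible at a distance from the starts. Over the whole genome, H3K27me3 islands covered 268 to 321 Mb per library in neurospheres and 54.9 to 160 Mb in hippocampus. The part of this in the spread was not tested. At 20.5 kb downstream, H3K27me3 covered 36.2% (Ctrl) and 49.4% (cKO) of the bin on average in hippocampus, and 79.4% and 94.2% in neurospheres. At 40.5 kb upstream it covered 11.1% in both hippocampal genotypes and 44.4% (Ctrl) and 61.1% (cKO) in neurospheres. The 4 genotype means at the start itself were all 100%.

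H3K36me2 islands lay far from the members, and in neurospheres farther than from most genes. The median distance from a start to the nearest H3K36me2 island was 42.3 to 75.3 kb over the 4 hippocampal libraries, where the median of all genes was 49.5 to 75.7 kb. In neurospheres it was 62.4 to 86.5 kb for the members and 3.21 to 40.1 kb for all genes. The nearest approaches were at Gata5 in hippocampus cKO replicate 1 (4.3 kb) and at Gata2 in neurosphere cKO replicate 1 (6.69 kb). H3K36me2 islands entered a gene body in only 2 of the 72 combinations of member and library, Gata5 in hippocampus cKO replicate 1 (48.1% of the body) and Gata4 in neurosphere cKO replicate 1 (6.05%). In both cases the other cKO library was at 0%. The neurosphere cKO replicate 1 library of this mark covered 21.96% of all promoter windows on average, against 3.95% to 10.4% in the other 3, and its part in the Gata2 and Gata4 values was not tested.

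Among the marks and sources, island width at the promoters separated the most members by genotype in neurosphere H3K27me3. Foxa2, the pioneer factor of node, floor plate and endoderm, had a widest island of 29.2 and 22.2 kb in the Ctrl libraries and of 73 and 78.6 kb in the cKO libraries. Foxa1 measured 31.4 and 20.4 kb in Ctrl against 52.8 and 78.8 kb in cKO. Sox17 measured 13 and 10.2 kb in Ctrl against 16 and 25.2 kb in cKO. With Gata4 (87.6, 103.8, 108.6 and 327.6 kb in Ctrl 1, Ctrl 2, cKO 1 and cKO 2) and Gata5 (141, 75.4, 170.2 and 153.4 kb), 5 of 9 members were wider in both cKO libraries, against 28.8% of 3401 promoters covered in all 4 libraries. Gata2, Gata3, Gata6 and Tal1 overlapped between genotypes. The median log2 ratio of cKO to Ctrl width was 0.83 over members and 0.23 over all such promoters.

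The length called inside the whole merged region gave another picture. SICER ends an island where a gap of more than 600 bp opens, so 1 region can hold several islands. At Gata4 it was 325.2, 328.8, 327.8 and 330 kb in Ctrl 1, Ctrl 2, cKO 1 and cKO 2, although the widest island ran from 87.6 to 327.6 kb. At Foxa1 it was 67, 59.8, 75.6 and 78.8 kb, and at Foxa2 87.4, 82.8, 95.8 and 106.2 kb. At Sox17 it was 13, 12.6, 17.8 and 25.2 kb. Foxa1, Foxa2 and Sox17 were thus longer in both cKO libraries by either measure. By called length alone these were 3 of 9 members, beside 36.2% of all 11262 regions, and no share was computed for both measures together. Gata2 (166, 165.8, 162.2 and 143.6 kb) and Gata5 (262.4, 257.8, 252.2 and 226.2 kb) had shorter called lengths in both cKO libraries, beside 12.1% of all regions. The median log2 ratio of called length was 0.0047 over members and 0.24 over all regions.

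**Figure D3:**
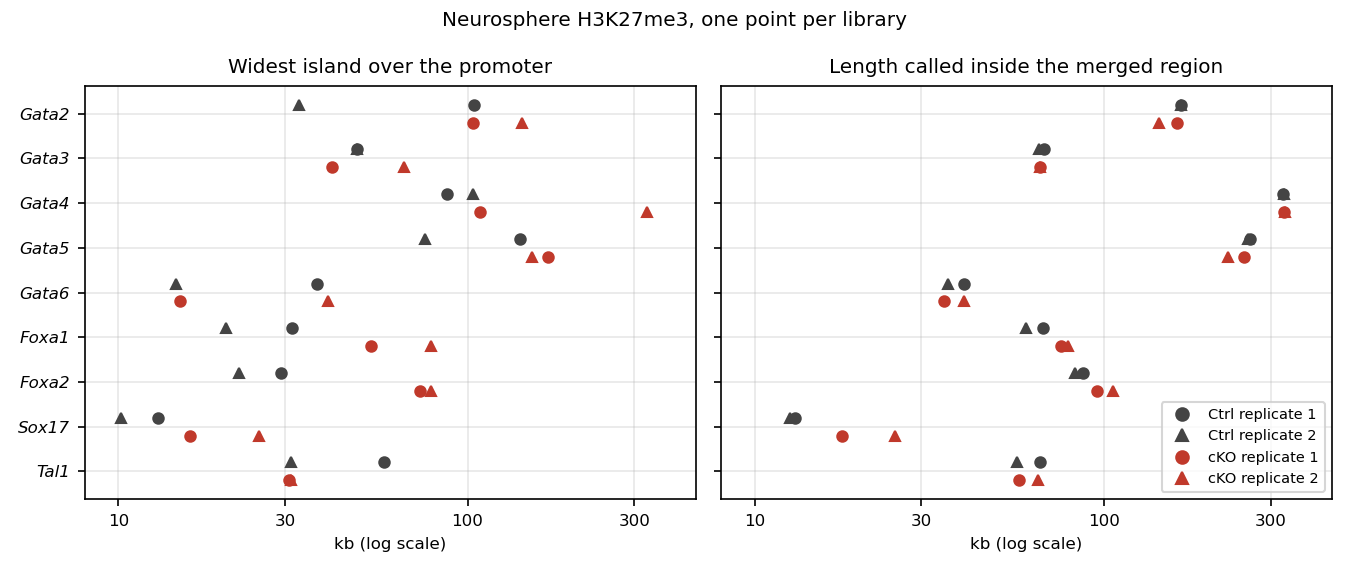
Neurosphere H3K27me3 at each gene, with 1 point for each library on a log axis in kb: left, the widest island over the promoter, and right, the total length called inside the merged region. Gata4 ranged from 87.6 to 327.6 kb on the left and from 325.2 to 330 kb on the right, while Foxa1, Foxa2 and Sox17 were longer in cKO in both panels. By the measure on the right, 36.2% of all regions were longer in both cKO libraries.

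In hippocampus the H3K27me3 islands had similar widths in both genotypes. Only Gata4 was wider in both cKO libraries (50.4 and 10.4 kb in Ctrl against 52.4 and 51 kb in cKO), against 26.7% of 1833 promoters, and its Ctrl values were far apart. Gata3 was the only member with a larger covered share of its gene body in both (77.2% and 67.5% in Ctrl against 86.9% and 88.1% in cKO), against 18.9% of gene bodies. For neurosphere H2AK119ub1, Tal1, the master regulator of blood formation, had narrower islands in both cKO libraries (18.8 and 20.8 kb) than in Ctrl (36.2 and 35 kb), against 24.4% of 1474 promoters.

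Counts per kb of the members had the same direction as most promoters. At Foxa2 in neurosphere H3K27me3 they were 207 and 186 in Ctrl against 83.0 and 110 in cKO, and at Gata2 in hippocampus 58.8 and 50.5 in Ctrl against 73.4 and 97.8 in cKO. For H3K27me3 in hippocampus all 9 members were higher in both cKO libraries, and so were 77.9% of all promoters covered in 4 libraries. In neurospheres 8 of 9 members were lower in both cKO libraries (all but Gata6), and so were 69.4% of promoters. Neurosphere H2AK119ub1 was lower in both at 6 of the 8 members covered in all 4 libraries, beside 65.1% of promoters. Relative to the median CpG-rich promoter island of each library, fewer members were separated. In hippocampal H3K27me3, 1 of 9 was higher in both cKO libraries (Sox17, beside 20.3% of promoters). In neurosphere H3K27me3, 5 of 9 were lower (Gata2, Gata4, Gata5, Foxa1 and Foxa2, beside 25% of promoters). In neurosphere H2AK119ub1, 4 of 8 were lower (Gata2, Gata3, Foxa1 and Foxa2, beside 31.1% of promoters).

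On that relative scale the 9 members ranged from 1.47 to 3.77 times the library median in neurosphere H3K27me3. They thus exceeded the typical CpG-rich promoter island in each library. The value is a mean over the whole widest island, so it is tied to island width, which differed between genes and libraries. Foxa2 had the highest mean of neurosphere Ctrl H3K27me3 at 3.47 and 3.72 times the library median. It was at 2.01 and 2.6 times in cKO, where its widest island was also wider. Gata2, a regulator of blood stem cells, was at 2.33 and 3.77 in Ctrl against 2.11 and 1.87 in cKO. Gata5 was lowest, at 1.77 and 1.66 in Ctrl against 1.64 and 1.47 in cKO. The ranges of Foxa2 and Gata5 did not overlap in Ctrl, whereas Tal1 (2.27 and 2.65), Gata4 (2.7 and 2.37) and Sox17 (2.14 and 2.42) overlapped each other. The median log2 ratio over members was -0.14, and that over all promoters covered in 4 libraries was -0.011.

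Counts summed over each merged region were compared by edgeR's quasi-likelihood test after TMM scaling, and CPM below means counts scaled in that way to library size. TMM takes most regions as unchanged, so a fall or rise shared by most regions would not show in these fits. Regions not called in every library of a fit were not tested, so islands lost from a library could not enter. In bulk chromatin, fewer marked cells and less of the mark in each cell cannot be told apart. No member region passed an adjusted p of 0.05 in any of the 4 fits that held members, and neither did any other region: 0% of 2750 regions in hippocampal H2AK119ub1, 0% of 6060 in neurosphere H2AK119ub1, 0% of 4387 in hippocampal H3K27me3 and 0% of 11262 in neurosphere H3K27me3. At an unadjusted p under 0.05 the same fits held 30, 101, 155 and 2077 regions. The DESeq2 Wald test called 0, 32, 3 and 734 regions at an adjusted p of 0.05, none of them at a member.

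In neurosphere H3K27me3, 7 of 9 members had lower values in both cKO libraries without passing the test, Foxa2 overlapped and Sox17 was higher. Gata4 had 3543 and 3764 CPM in Ctrl against 2538 and 2646 in cKO, a log2 fold change of -0.50 (SE 0.13, edgeR adjusted p = 0.193). Gata5 had 2083 and 2251 in Ctrl against 1541 and 1180 in cKO, a log2 fold change of -0.67 (SE 0.18, edgeR adjusted p = 0.199). Gata2 had 1662 and 1795 in Ctrl against 1255 and 1052 in cKO, a log2 fold change of -0.58 (SE 0.16, edgeR adjusted p = 0.199). In the regions at these 3 genes both cKO libraries lay below both Ctrl libraries. The regions were 333 kb (Gata4), 267.8 kb (Gata5) and 170 kb (Gata2) long and held starts of other genes. The counts are therefore not those of the 3 genes alone.

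Tal1 had 672 and 700.5 CPM in Ctrl against 480 and 526 in cKO, and Gata3 had 797 and 883 in Ctrl against 609 and 630 in cKO. Their log2 fold changes were -0.45 and -0.44 (SE 0.15 each, edgeR adjusted p = 0.243 each). Gata6, a regulator of primitive endoderm, had 409 and 426 in Ctrl against 310 and 335 in cKO (log2 fold change -0.37, SE 0.16, edgeR adjusted p = 0.296). Foxa1 had 686 and 740 in Ctrl against 597 and 666 in cKO (log2 fold change -0.18, SE 0.16, edgeR adjusted p = 0.556). These 7 members had lower values in both cKO libraries, beside 30.3% of all regions.

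Foxa2 and Sox17 differed from that order. Foxa2 had 851 and 846 CPM in Ctrl against 690 and 903 in cKO, so its groups overlapped (log2 fold change -0.09, SE 0.18, edgeR adjusted p = 0.803). Sox17 had 138 and 149 in Ctrl against 156 and 213 in cKO, and was higher in both cKO libraries beside 26.9% of regions (log2 fold change 0.36, SE 0.23, edgeR adjusted p = 0.431). The unadjusted p of Gata2, Gata3, Gata4, Gata5 and Tal1 was under 0.05, which was 5 of 9 members beside 8.94% of all regions in the same direction. That share was not matched for length or counts, and the regions at members were longer (median 80.4 kb against 13.8 kb for all). The median log2 fold change was -0.44 over members and 0.014 over all regions. Without cKO replicate 1, 3 members and 2409 regions passed an adjusted p of 0.05: Gata2 (edgeR adjusted p = 0.0241) and Gata5 (0.0170) were lower and Sox17 (0.0383) was higher. Without cKO replicate 2, 96 regions and no member passed.

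The same 9 promoters counted over the 4-kb window alone, with each island's count spread evenly over its length, gave a median of -0.10. A window value thus restates the counts per kb of the islands over it and is not a separate local read count. Over those windows Gata2 was at -0.58 and Foxa2 at -0.60, whereas Gata5 was at -0.10, Gata3 at -0.093, Gata6 at -0.015 and Tal1 at 0.16. No member passed an adjusted p of 0.05 there. Library totals in place of TMM put the median of all regions at 0.23 and that of the members at -0.22, with Foxa1 at 0.040 and Foxa2 at 0.12.

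**Figure D4:**
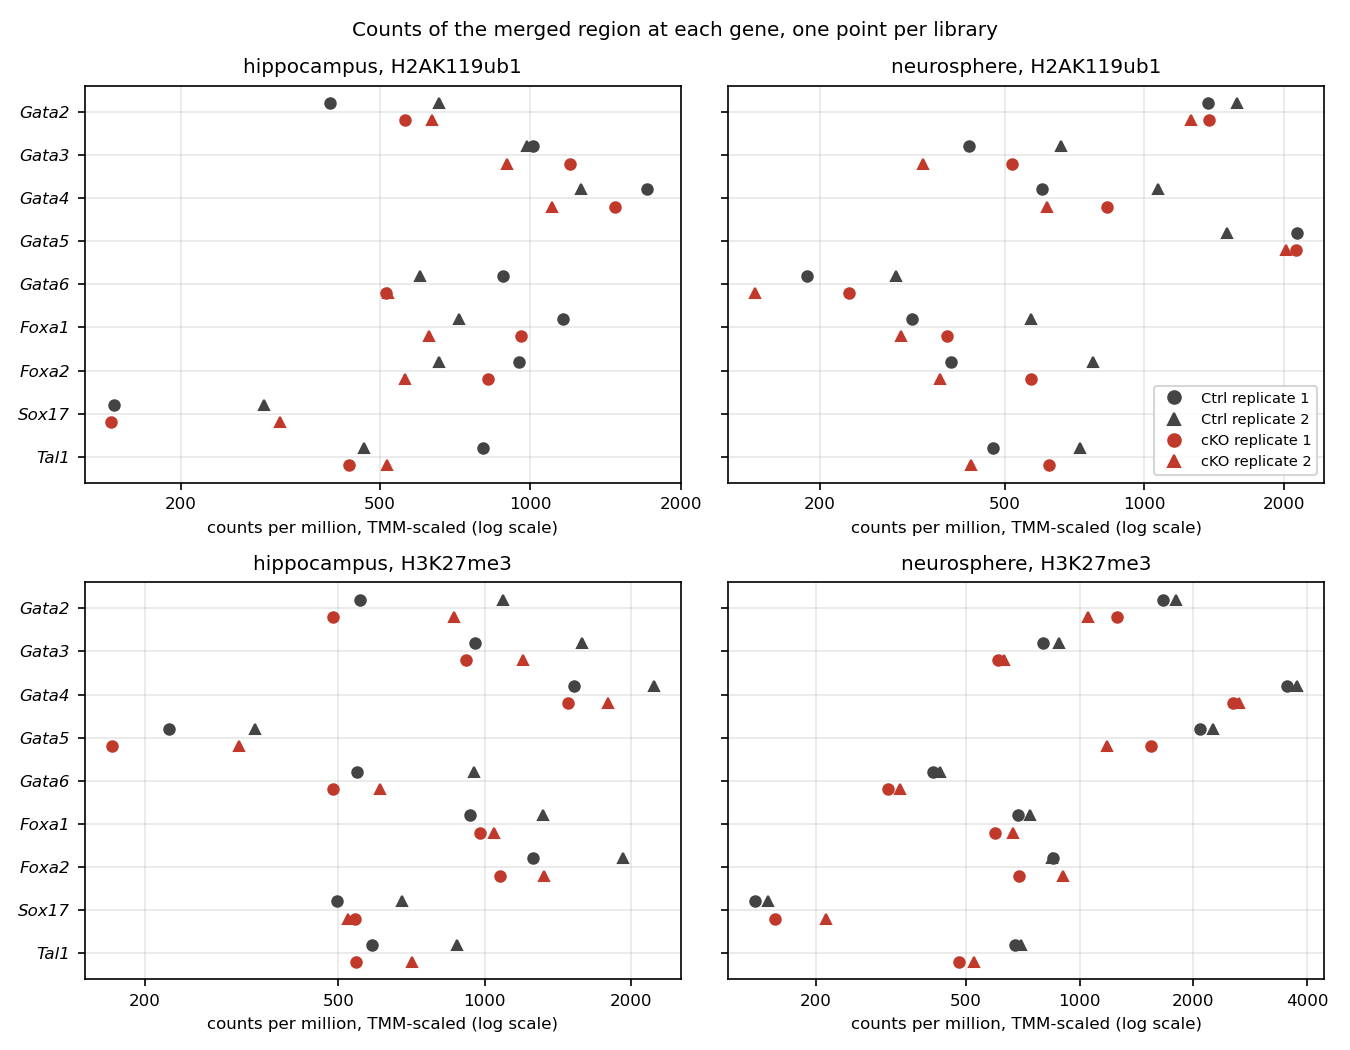
TMM-scaled CPM of the merged region at each gene (log axis), with 1 point for each library and a panel for each mark and source; genes with no region called in all 4 libraries have no points. In neurosphere H3K27me3 both cKO points lay left of both Ctrl points at 7 genes and right of them at Sox17, while most genes overlapped in the other 3 panels.

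In the other 3 fits the genotypes overlapped at each member but Gata6 in hippocampal H2AK119ub1. In hippocampal H3K27me3 all 9 had a negative log2 fold change, from -0.14 (Sox17) to -0.45 (Gata6), with edgeR adjusted p = 0.994 for each. The median of all regions was -0.018. All 9 members overlapped between genotypes, where 15.2% of all regions were lower and 15.9% higher in both cKO libraries. Ctrl replicate 2 had the fewest counts of that mark (1681001, against 5117758 to 5525016), and without it the median over members was 0.11 in place of -0.22. Hippocampal H2AK119ub1 held 8 members, with a median log2 fold change of -0.21. Gata6 alone was lower in both cKO libraries, beside 14.0% of all 2750 regions (880 and 601 CPM in Ctrl against 514 and 519 in cKO, log2 fold change -0.52, SE 0.54, edgeR adjusted p = 0.999). The median over members changed sign with the setting: it was 0.034 without Ctrl replicate 1 and 0.21 over the 4-kb promoter windows, -0.030 without cKO replicate 2 and -0.46 without Ctrl replicate 2. Neurosphere H2AK119ub1 held 8 members with a median of -0.26. None was separated by genotype, beside 13.9% of all regions lower and 12.5% higher in both cKO libraries. Without Ctrl replicate 2 that median was 0.049. Without Ctrl replicate 1 it was -0.60, with 671 regions and no member past an adjusted p of 0.05.

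Whether the genotype difference itself differed between sources was tested as an interaction over the 8 libraries of a mark, on regions called in all 8. No member passed: 0% of 1555 H2AK119ub1 regions and 0% of 2373 H3K27me3 regions had an adjusted p under 0.05, with 22 and 258 at an unadjusted p under 0.05. The DESeq2 Wald test called 0 and 47 regions, with no member. Sox17 H3K27me3 came nearest, with a log2 fold change 1.04 higher in neurospheres than in hippocampus (SE 0.46, edgeR adjusted p = 0.460), followed by Foxa2 with 0.62 (SE 0.38, edgeR adjusted p = 0.561).

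A wider list of 30 genes with roles in the same lineages was less uniform than the members. Whether the listed genes were silent in this material was not tested. Of the 30 genes, 12 were fully covered by H3K27me3 in all 8 libraries, 5 had no H3K27me3 in any and 13 were covered in part. The fully covered ones included Cdx2, a gut and trophoblast factor, Fli1, an endothelial and blood factor, Gsc, the organizer gene, and Hand1, a heart and placenta factor. The uncovered ones included Ldb1 and Tcf3, partners of Tal1 in blood cells, the blood factor Lyl1 and Cer1, an inhibitor that endoderm secretes. The paralogue Gata1 had an island in 1 of 8 libraries (mean coverage 3.97%), and Foxa3 was covered over 65.3% on average without full coverage in any. H3K36me2 was absent from 16 of 30 promoters in all 8 libraries.

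The genes whose promoter coverage was most like the mean of the 9 members over the 24 libraries were En1, Tbx15, 4930447C04Rik, Pax3 and Otp, which differed from it by 1.69, 1.78, 1.79, 1.85 and 1.92 percentage points on average. The median over all genes was 60.3. Like the members, these 5 were at 100% H3K27me3 and 0% H3K36me2 in every library. Among the members Foxa2 lay nearest to the mean (1.99 percentage points) and Sox17 farthest (9.09).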

How the data were processed

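ChIP-seq of H2AK119ub1, H3K27me3 and H3K36me2 was analysed in 24 libraries, grouped by the labels. The 12 input samples had no values used here. Per the study's methods and the submitters' processing notes, the authors trimmed reads with cutadapt, aligned them to mm10 with Bowtie2 2.4.5, removed duplicates and ran SICER on each library with its input (window 200 bp, gap 600 bp, FDR 0.01; version not given in the sources used here). The deposited files list islands with the raw count of reads in each, not normalised. Positions outside islands carry no count, and islands on the mitochondrial chromosome were left out.

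Starts were those of GENCODE M21 protein-coding genes, and sequence came from GRCm38. Coverage and widths were computed in Python 3.11.15 (numpy 2.4.6). Region counts (regions called in all libraries of a fit) were tested with edgeR 4.0.16 in R 4.3.3 (TMM, quasi-likelihood, Benjamini-Hochberg over all regions), with DESeq2 1.42.0 as an alternative. The code was tested on simulated data. Exact permutation tests were two-sided and compared coverage. Reads carry no molecular identifiers. Each SD is the spread between the libraries of a group. The SE was taken as the size of the log2 fold change divided by the square root of F from the edgeR fit, which shares information on spread across regions.

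The members and gene lists were chosen with earlier results of these data known. Named genes were the 9 members, the 4 highest and 4 lowest of the wider list by H3K27me3 coverage (ties by alphabet), the 5 genes nearest in coverage and neighbours inside a region. Gata1 and Foxa3 were named after their values were seen, as paralogues. Widths and counts per kb had no test. Alternatives covered the promoter size and start, island length, equal covered length, scaling, the test, a filter on low counts and each library left out.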

Additional observations from a re-analysis of the deposited data

Results flagged for a closer look

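The cKO to Ctrl difference in H3K27me3 counts per kb had opposite signs in the sources at 8 members, with both cKO libraries above Ctrl in hippocampus and below it in neurospheres. The neurosphere log2 ratio minus the hippocampal one was -1.63 at Gata2, -0.96 at Gata3, -1.15 at Gata4, -1.16 at Gata5, -1.36 at Foxa1, -1.29 at Foxa2, -0.996 at Sox17 and -0.84 at Tal1. Gata6 had the same opposite order for H2AK119ub1, with -1.15, but its hippocampal cKO replicate 1 island was only 1 kb long and held 42 counts. Its hippocampal H2AK119ub1 region counts were lower in both cKO libraries (880 and 601 CPM in Ctrl against 514 and 519 in cKO). For H2AK119ub1 counts per kb, the median log2 ratio over all promoters covered in 4 libraries was 0.16 in hippocampus and -0.51 in neurospheres. These differences of counts per kb were not tested themselves. In the same direction, 77.9% of all promoters were higher in hippocampal cKO and 69.4% were lower in neurosphere cKO for H3K27me3. These are raw counts, and the relative scale removes any change that CpG-rich promoter islands share, technical or not. Relative to the median CpG-rich promoter island of each library, no member kept the opposite order: in H3K27me3 Sox17 alone was higher in both hippocampal cKO libraries, and it overlapped in neurospheres, as did Gata6 in neurosphere H2AK119ub1. The TMM-scaled region counts of H3K27me3 in hippocampus had a negative log2 fold change at all 9 members, with a median of -0.22. The interaction test on region counts called no member.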

How the results depend on the processing

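H3K27me3 and H3K36me2 promoter coverage differed by 0 percentage points under each alternative run. In neurosphere H3K27me3 the median log2 fold change of region counts was -0.44, and it was -0.22 with library totals in place of TMM, which moved the median of all regions from 0.014 to 0.23, and -0.10 in promoter windows; in hippocampal H3K27me3 it was -0.22, and 0.089 in promoter windows. Single genes of the neurosphere H3K27me3 fit changed sign with library totals (Foxa1 0.040, Foxa2 0.12) and in promoter windows (Sox17 -0.013, Tal1 0.16). Promoter-window values follow the counts per kb of the islands, since each island's count was spread evenly over its length. The cause of the changes was not tested. The median log2 ratio of neurosphere H3K27me3 width was 0.83, and 0.0047 for called length inside the region, a measure added after seeing the data.

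With 1 library left out at a time, members past an adjusted p of 0.05 in neurosphere H3K27me3 numbered 0 to 3 (3 without cKO replicate 1), Foxa2 ran from -0.25 to 0.093 and the hippocampal H3K27me3 median from -0.49 to 0.11. Medians of log2 ratios, added after seeing the data, ran from -1.61 to 1.26 for hippocampal H2AK119ub1 width, from -0.085 to 0.63 for hippocampal H3K27me3 relative density, from -1.08 to -0.29 for neurosphere H2AK119ub1 counts per kb and from 0.24 to 1.07 for neurosphere H3K27me3 width. A lone library was assumed to vary like the others.

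The labels do not say what a replicate number shares. With the number as a replicate block, 0 members passed in any fit, and the medians were -0.21 and -0.23 (H2AK119ub1, hippocampus and neurosphere) and -0.23 and -0.44 (H3K27me3). Regions past an adjusted p of 0.05 became 9 in hippocampal H3K27me3 and stayed at 0 in the other fits that held members. Deviations of same-numbered libraries correlated at 0.33, -0.32, 0.27 and -0.12 in that order of mark and source. Library depth was not known, and 2 libraries a group limited each test.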
